A study of Homo sapiens with 32 samples.

Results

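The locus described here is the stretch of human chromosome 8 that holds MYC, its neighbour PVT1 and, on the other side of MYC, CCAT1 with the enhancer region around it. It was taken as chr8:127700000-129600000 of the hg19 build, 1.9 Mb, and every peak of N6-methyladenosine (m6A) in that interval was a member: 207 of the 424904 peak lines in the 3 lists used. Within it, MYC was chr8:128748315-128753680 (5.37 kb), PVT1 chr8:128806779-129113499 (307 kb) and CCAT1 chr8:128219629-128231333 (11.7 kb). The rule takes members by position alone, without the numbers and strengths of the peaks, but earlier results of these data were known when it was set.

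All libraries came from PANC-1, an established cell line of human pancreatic ductal adenocarcinoma. The groups were control, knockout of CFL1 (KO CFL1) and knockout of METTL3 (KO METTL3), all on total RNA, and the labels give no treatment that differs between them. The labels do not say whether a knockout was 1 clone or a pool, and peak lists cannot show whether either protein was absent or check the cell line against marker genes. RNA fragments pulled down with an antibody to m6A were sequenced together with unselected input. Each list joined the peaks of 2 libraries that had been called on their own; they are named here by the numbers in their peak names, control 1 and control 2, CFL1 knockout 3 and its partner 5, and METTL3 knockout 3 and its partner 5. Whether these pairs are separate cultures is not stated. The p-values come only from exchanging these libraries between groups, and the spread between libraries of a group may be technical.

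m6A is the most common internal mark of messenger RNA; METTL3 is the catalytic subunit of the enzyme that writes it, and CFL1 (cofilin-1) severs actin filaments. MYC encodes a transcription factor that drives growth and proliferation, and proteins of the IGF2BP family are known to bind m6A in its messenger RNA and to stabilise it. PVT1 is a long noncoding RNA gene that is often gained together with MYC in tumours, hosts several microRNAs, and has a promoter that competes with that of MYC for enhancers. CCAT1 is a long noncoding RNA transcribed from a super enhancer, a dense cluster of enhancers, which is known from colorectal cancer to act on MYC. The study asked how CFL1 bears on m6A in RNA made from super enhancers. In the RefSeq table, used only for names and order, all 3 genes matched by symbol; MIR1204, LINC02912, MIR1205, RNVU1-32, MIR1206, RNU4-25P and MIR1207 lie within PVT1, and CASC21, CASC8, CCAT2, POU5F1B, LOC105375754 and CASC11 lie between CCAT1 and MYC.

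For each peak the authors' list gives a fold enrichment and −log10 q, the strength of the statistical evidence for the peak, and both are the authors' own values. They are used to describe, rank and filter peaks within a library; a difference in them between libraries is not a measured change. The libraries held between 63859 and 79467 peaks, more in both controls than in any knockout library. Their median −log10 q lay between 7.52 and 11.3, lower in both controls than in any knockout library, and the part that these differences play in the results below was not tested. Read depth is unknown. The lists hold no levels of input RNA, so less methylation and less RNA cannot be told apart where a peak was not called.

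The locus had fewer m6A peaks in both knockouts than in control, and the difference lay in PVT1. Control 1 had 60 peaks in the locus and control 2 had 56. CFL1 knockout 3 had 24 and CFL1 knockout 5 had 20, while METTL3 knockout 3 had 25 and METTL3 knockout 5 had 22. Every knockout library lay below both controls. Scaled to 100000 peaks of a library, the control mean was 73.9 ± 4.84 (SD, n = 2), the CFL1 knockout mean 31.6 ± 2 (SD, n = 2) and the METTL3 knockout mean 36.5 ± 3.73 (SD, n = 2), which is 0.427 and 0.494 of control. The exact two-sided permutation test over libraries gave p = 0.333 for each knockout and p = 0.0667 for the 4 knockout libraries together, the smallest values that 2 against 2 and 2 against 4 libraries allow, so no comparison of libraries here could pass a threshold of 5%. As background, the genome was tiled in windows of the same length: 29.8% of the 1186 windows with a mean of at least 10 control peaks had all 4 knockout libraries below both controls. In 2.28% of them both knockouts were at 0.5 of control or less. This bound was not planned in advance, so the share is no fair measure of rarity. The locus met the bound narrowly: without control 1 the METTL3 knockout stood at 0.518 and without METTL3 knockout 5 at 0.53. Among peaks with a fold of 4 or more the locus did not meet it, at 0.584 and 0.714.

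**Figure D1:**
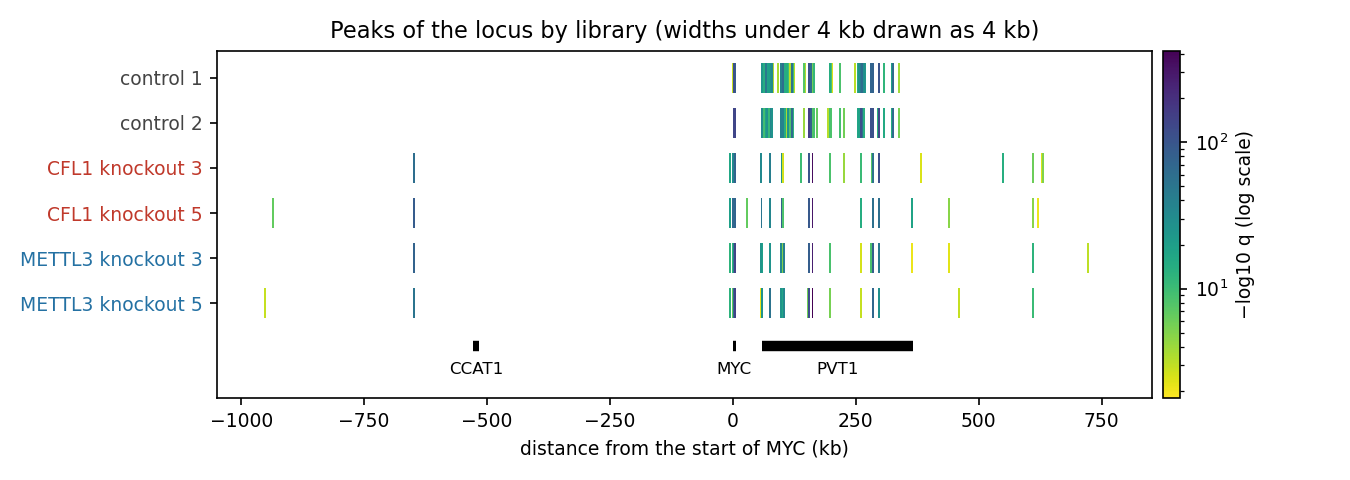
Peaks in the 1.9 Mb locus, 1 row per library, by distance from the start of MYC in kb; colour gives −log10 q on a log scale, and the bars below mark the 3 genes. The dense block of control peaks over PVT1 is thin in all 4 knockout libraries, CCAT1 has no peak in any library, and outside the genes nearly all peaks belong to knockout libraries.

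PVT1, which takes up 16.1% of the locus, held nearly all of its control peaks. Control 1 had 56 peaks in PVT1 and control 2 had 52. CFL1 knockout 3 had 12, CFL1 knockout 5 had 9, METTL3 knockout 3 had 13 and METTL3 knockout 5 had 12. Per 100000 peaks the control mean was 68.8 ± 4.76 (SD, n = 2), the CFL1 knockout mean 15 ± 2.07 (SD, n = 2) and the METTL3 knockout mean 19.4 ± 1.33 (SD, n = 2). The knockouts thus stood at 0.219 and 0.282 of control, with exact permutation p = 0.333 for each (two-sided) and no overlap between the groups. Among peaks with a fold of 4 or more the METTL3 knockout stood at 0.468 of control. In windows of the length of PVT1 that had a mean of at least 10 control peaks, 43% of 2741 had all 4 knockout libraries below both controls. In 15.2% both knockouts were at 0.5 of control or less, the unplanned bound used above. At 0.3 or less, a bound chosen after the values of PVT1 were seen, the share was 3.98%. PVT1 was also rich in control peaks: 98.4% of all windows of its length with a peak had fewer.

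**Figure D2:**
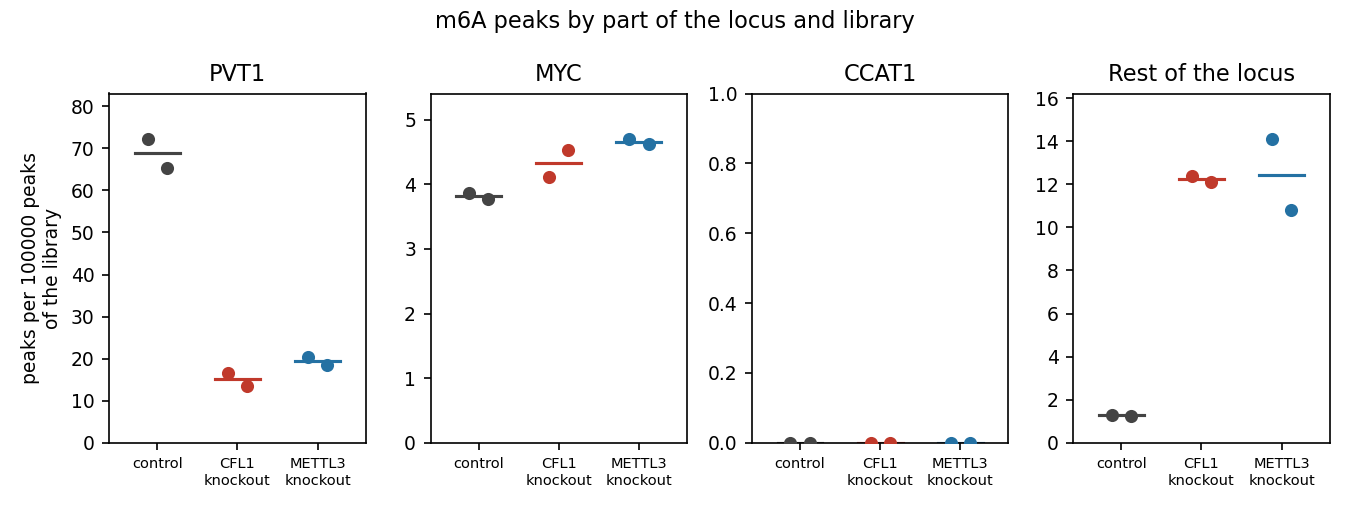
Peaks per 100000 peaks of the library (y axis, a scale of its own in each panel) in PVT1, MYC, CCAT1 and the rest of the locus; points are libraries and lines are group means of 2 libraries. The 4 knockout libraries lie between 13.6 and 20.4 in PVT1, below 65.4 and 72.2 in control, whereas MYC has 3 peaks in each library, CCAT1 has 0, and the rest of the locus has 10.8 to 14.1 in the knockouts against 1.26 and 1.29 in control.

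The lower number in PVT1 was also found among strong peaks. At −log10 q of at least 10, control 1 and 2 had 34 and 30 peaks in PVT1. The CFL1 knockout libraries had 7 and 8 such peaks, and the METTL3 knockout libraries had 8 and 9. The bases covered by peaks were 22299 and 21408 in the controls, 5742 and 5074 in the CFL1 knockout, and 5395 and 5607 in the METTL3 knockout. By number, by number of strong peaks and by bases covered, every knockout library was below both controls. By number, 43% of the windows of the length of PVT1 described above had the same pattern. No such share was computed for strong peaks or for bases covered.

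A control peak of PVT1 was called lost where no peak of the knockout list overlapped it by at least 1 bp. In the CFL1 knockout 90 of 108 control peaks of PVT1 were lost, 83.3% (exact 95% binomial interval 74.9% to 89.8%). The METTL3 knockout also lost 90 of 108, and 87 of 108, or 80.6%, were lost in both. Over all control peaks of the genome, the CFL1 knockout lost 57.8%, the METTL3 knockout 57.7% and both together 52.4%. The intervals cover counting error only, because neighbouring peaks, and the same site called in both control libraries, are not independent. At −log10 q of at least 10, 51 of 64 control peaks of PVT1 were lost in the CFL1 knockout and 48 of 64 in the METTL3 knockout, against 34.6% and 33.6% of all control peaks.

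Weak peaks are lost more often than strong ones across the genome, so PVT1 was compared at like strength. Of control peaks with −log10 q below 10, the CFL1 knockout lost 39 of 44 in PVT1 and 74.4% over the genome. From 10 to 20 it lost 29 of 30 against 56.9%, and from 20 to 50 it lost 11 of 16 against 35.8%. At 50 and above it lost 11 of 18, where 8.24% of all such control peaks were lost. The METTL3 knockout lost 42 of 44 against 75% below 10, 28 of 30 against 57% from 10 to 20, and 11 of 16 against 34.1% from 20 to 50. At 50 and above it lost 9 of 18 against 6.4%. In each of the 4 ranges and in both knockouts, the share lost in PVT1 was above that of the genome. Counted by peaks, the gap was widest among the strongest, but a site called in both controls counts more than once there.

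**Figure D3:**
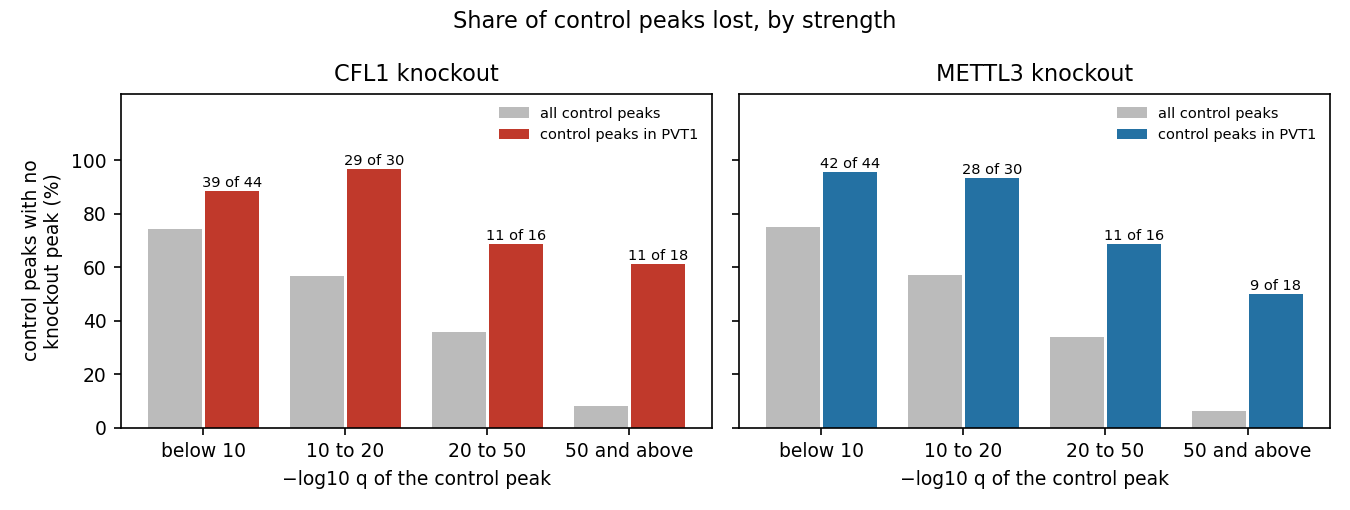
Share of control peaks with no overlapping knockout peak (y axis, %) by −log10 q of the control peak, for the CFL1 knockout (left) and the METTL3 knockout (right); grey bars are all control peaks, coloured bars those in PVT1, with the number lost of the number present. The grey bars drop to 8.24% and 6.4% in the strongest range, while PVT1 stays at 11 of 18 and 9 of 18.

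Joining overlapping peaks of the 6 libraries gave sites, numbered along the chromosome within each gene: 92 in the locus, of which 72 lay in PVT1, 3 in MYC and 17 outside the genes. Of the 72 sites of PVT1, 65 had a peak in a control library and 41 in both. In no knockout library was there a peak at 54 of the 65: 32 of them were called in both controls, 13 in control 1 alone and 9 in control 2 alone. Over the genome, 56888 of 94899 sites with a control peak had no knockout peak. Of the sites called in both controls, 32 of 41 had no knockout peak in PVT1, against 45.1% of such sites over the genome. At 6 of the 41 all 4 knockout libraries had a peak, against 36.6% over the genome. Sites called in both controls and no knockout made up 13.3% of all 174376 sites.

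By the lower of the 2 control values of −log10 q, 14 of 16 sites of PVT1 below 10 had no knockout peak, where the genome had 64.1%. From 10 to 20 it was 12 of 12 against 45.1%, from 20 to 50 it was 2 of 5 against 24.5%, and at 50 and above 4 of 8 against 3.93%. Counted by sites in this way, the gap was widest from 10 to 20, not among the strongest. Sites without a knockout peak were weaker and narrower in control than those that had one. The 32 sites had a median −log10 q of 15.7 in control 1 and 13.8 in control 2, with median peak widths of 314 and 298 bp. For the 9 sites of both controls with a knockout peak, the medians were 44.2 and 106, and the widths 713 and 684 bp.

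Along PVT1 the control sites were densest at the start of the gene. The first 50 kb held 24 sites with a control peak, 20 of them with no knockout peak. From 50 to 100 kb these numbers were 15 and 14, from 100 to 150 kb 8 and 7, and from 150 to 200 kb 6 and 5. From 200 to 250 kb 5 of 9 control sites lacked a knockout peak, and from 250 to 300 kb 3 of 3. The last stretch of the gene, beyond 300 kb, held no control site and 2 sites of a single knockout library each. Over the genome, 56888 of 94899 sites with a control peak had no knockout peak. From 200 to 250 kb, the 4 control sites with a knockout peak had −log10 q of at least 44.2 in both controls. A strong site without one, with 61.6 and 57.1, lay there too. Position along the gene was not separated from strength, and the difference between stretches was not tested.

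**Figure D4:**
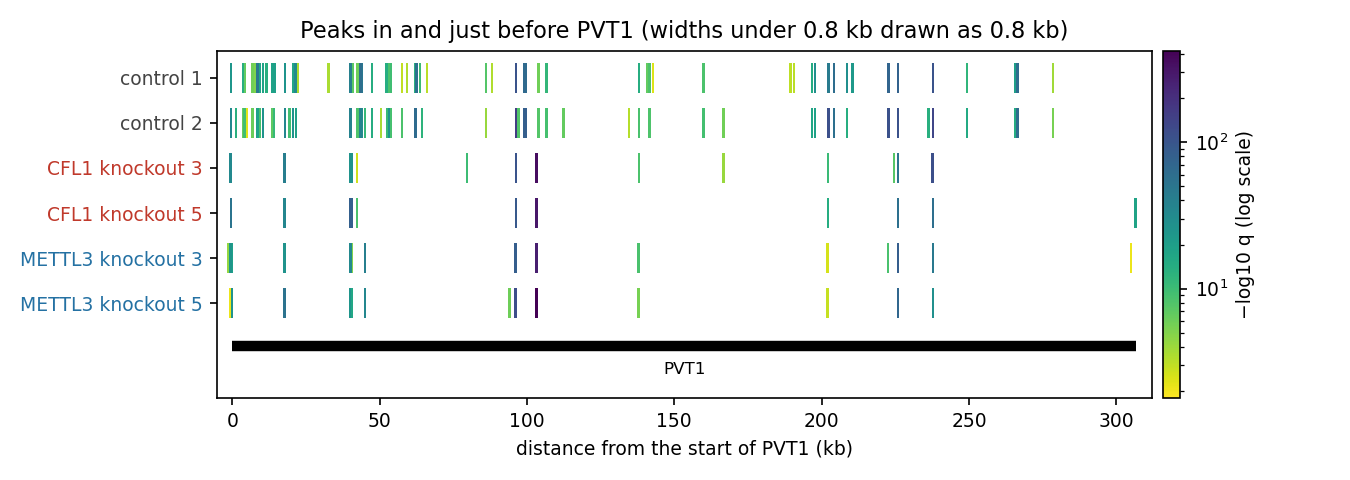
Peaks in and just before PVT1, 1 row per library, by distance from the gene's start in kb; colour gives −log10 q on a log scale. Control peaks crowd the start of the gene and recur along it, the knockout libraries keep a few shared positions, and the darkest mark, near 103 kb, appears in the 4 knockout libraries and in neither control.

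The strongest peak of PVT1 in each knockout library was one that neither control had. Site 43, chr8:128909518-128910582, lies 103 kb from the start of the gene. Its −log10 q was 353 (fold 5.43) in CFL1 knockout 3, 302 (fold 4.77) in CFL1 knockout 5, 267 (fold 4.86) in METTL3 knockout 3 and 420 (fold 8.76) in METTL3 knockout 5. These values put it in the top 0.247%, 0.733%, 1.65% and 0.279% of the peaks of those libraries by −log10 q. Neither control had a peak there, and the nearest control peaks, at site 44 (chr8:128910606-128910831), began 23 bp beyond it with −log10 q of only 5.87 and 7.74. Site 44 in turn had no knockout peak. Over the genome, 3.63% of sites had a peak in all 4 knockout libraries and in no control.

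On the lower-coordinate side of site 43, PVT1 had strong control sites that behaved differently from each other. Site 40, chr8:128902653-128903360, was called in all 6 libraries, with −log10 q of 104 and 161 in the controls, 101 and 93.3 in the libraries of the CFL1 knockout, and 83.7 and 117 in those of the METTL3 knockout. It ranked 1 among the peaks of PVT1 in control 2, 3 in CFL1 knockout 3 and 2 in each other library. Site 42, chr8:128905583-128906762, between sites 40 and 43, had −log10 q of 65.6 (fold 6.35) in control 1 and 82.4 (fold 6.02) in control 2, and no knockout library had a peak there. It was the strongest site of PVT1 that all 4 knockout libraries lacked.

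The other strong sites called in both controls and in no knockout lay along the whole gene. Site 32, chr8:128868497-128869468, had −log10 q of 54.6 and 63.8 with folds of 8.32 and 8.86, and the nearest knockout peak was 16.5 kb away. Site 69, chr8:129072925-129073480, had 62.6 and 62.5, with the nearest knockout peak 28.1 kb away. At site 59, chr8:129010823-129011101, the values were 61.6 and 57.1, and at site 22, chr8:128850163-128850438, they were 60.4 and 36.8. Sites 32 and 69 thus lay in stretches without any knockout peak, whereas site 22 was 0.788 kb and site 59 1.84 kb from one.

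Of the strong sites of PVT1 called in every library, site 64, chr8:129032475-129032902, had −log10 q of 77.1 and 106 in control, 53 and 57.3 in the CFL1 knockout, and 83.7 and 70.1 in the METTL3 knockout. Site 66, chr8:129044245-129044989, had 104 and 133 in control, 113 and 58.2 in the CFL1 knockout, and 45.9 and 27.5 in the METTL3 knockout. At site 20, chr8:128846345-128847828, the values were 39.7 and 37.1, then 25.4 and 81.3, then 32.3 and 24.5, in the same order of groups. Both libraries of the CFL1 knockout had lower values than both controls at sites 40 and 64, and both of the METTL3 knockout at sites 20 and 66; at these 4 sites the other knockout overlapped control.

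At 2 further strong sites the knockout libraries had narrow peaks or none. Site 58, chr8:129008645-129009630, had −log10 q of 44.2 and 110 in control with peaks of 972 and 984 bp. In the CFL1 knockout the values were 10.4 and 14.5 with peaks of 269 and 285 bp, and in the METTL3 knockout 2.54 and 2.9 with peaks of 200 bp in both libraries. Site 62, chr8:129029040-129030016, had 71.8 and 109 in control and 8.54 in METTL3 knockout 3, and the other 3 knockout libraries had no peak. The folds at site 58 were 2.75 and 4.53 in control, 2.43 and 2.38 in the CFL1 knockout, and 1.58 and 1.73 in the METTL3 knockout. Both sites rank among the 8 strongest of PVT1.

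A few weaker sites, chosen after their values were seen, separated the knockouts. Site 24, chr8:128851697-128852063, had −log10 q of 41.1 and 33.9 in METTL3 knockout 3 and 5 and 10.9 in control 2; control 1 and both CFL1 knockout libraries had no peak. Site 1, chr8:128806651-128806878, which spans the annotated start of PVT1, was called only in the METTL3 knockout libraries, with 19.2 and 25.7. Site 21, chr8:128849086-128849387, was called in both controls (5.95 and 8.32) and both CFL1 knockout libraries (2.66 and 8.4) and not in the METTL3 knockout. The difference between the knockouts at these sites was not tested.

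Peaks of PVT1 that control lacked were few. In the CFL1 knockout 5 of 21 peaks (23.8%) overlapped no control peak, where 53.2% of all its peaks did not. In the METTL3 knockout it was 6 of 25 (24%), against 49.3%. These came from 7 sites: site 43 in all 4 libraries, site 1 in both METTL3 knockout libraries, and 5 sites of a single library each. At −log10 q of at least 10, 3 of 15 and 4 of 17 such peaks lacked a control peak, against 32.9% and 29.3% over the genome. At 50 and above the order turned, with 2 of 9 and 2 of 7 against 12.2% and 10.4%. All of these strongest peaks without a control peak were those of site 43.

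MYC kept its m6A peaks in both knockouts. Each of the 6 libraries had 3 peaks in MYC, and 0 of the 6 control peaks was lost in either knockout, a share for which counting alone allows up to 45.9% (exact 95% binomial interval). Of these 6 peaks, 4 had −log10 q above 50, a range in which 8.24% and 6.4% of all control peaks were lost, so keeping those 4 was near the background. Per 100000 peaks of the library, MYC had 3.82 ± 0.0641 (SD, n = 2) in control; the CFL1 knockout had 4.33 ± 0.283 (SD, n = 2) and the METTL3 knockout 4.66 ± 0.0559 (SD, n = 2). The ratios to control of 1.13 and 1.22 come from the smaller totals of the knockout libraries, since the number of peaks was equal. Among peaks with a fold of 4 or more the direction turned, with the CFL1 knockout at 0.224 and the METTL3 knockout at 0.468 of control. Very few peaks stand behind this, and the control folds lay close to the cut. They were 4.01 and 4.05 in control 1 and 4.1 and 4.4 in control 2. The knockout folds were 4.6 in CFL1 knockout 5, 4.27 in METTL3 knockout 3 and 4.72 in METTL3 knockout 5, with none in CFL1 knockout 3.

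The peaks of MYC formed 3 sites, near the start, in the middle and at the end of the gene, which is transcribed from its lower coordinate. Site 1, chr8:128748234-128748693, ran from -81 to 378 bp of the annotated start. Its −log10 q was 2.86 in control 1, and control 2 had no peak there. CFL1 knockout 3 and 5 had 28.6 and 66.8 there, and METTL3 knockout 3 and 5 had 11.3 and 6.55. The peak at the start of MYC was therefore called in 5 of 6 libraries and had its lowest value in control 1. The fold was also lowest in control 1, at 1.49, with 2.87 and 4.6 in the CFL1 knockout, and 3.17 and 2.87 in the other knockout.

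Site 2, chr8:128749978-128751154, was wider in every knockout library than in control. The strongest peak measured 384 bp in control 1 and 395 bp in control 2. It measured 1177 and 1030 bp in CFL1 knockout 3 and 5, and 985 and 959 bp in METTL3 knockout 3 and 5. All 6 peaks ended at nearly the same place, between 2824 and 2839 bp from the start of MYC; the knockout peaks began 1663 to 1879 bp from it, and the control peaks 2441 and 2435 bp from it. Control 2 also had a separate weak peak there, with −log10 q of 3.87, inside the stretch covered by the wide knockout peaks. The −log10 q of the strongest peak was 112 and 135 in control, 37 and 48.9 in the CFL1 knockout, and 40.6 and 57.8 in the METTL3 knockout, so the wider peaks had the lower values.

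Site 3, chr8:128752466-128753651, lies at the end of the gene, and there the knockout peaks were placed nearer the start of the gene than the control peaks. The control peaks ran to 29 and 30 bp before the annotated end. The CFL1 knockout peaks stopped 404 and 380 bp before it, and the METTL3 knockout peaks 314 and 334 bp. The first base lay 4656 and 4643 bp from the start of the gene in control, 4151 and 4192 bp in the CFL1 knockout, and 4371 and 4291 bp in the METTL3 knockout. Both control summits were at 4835 bp, while the knockout summits lay at 4701, 4703, 4815 and 4812 bp. The widths were 681 and 693 bp in control, 811 and 794 bp in the CFL1 knockout, both above control, and 681 and 741 bp in the METTL3 knockout, which overlapped control. The −log10 q was 90.4 and 138 in control, 72.4 and 73.5 in the CFL1 knockout, and 141 and 143 in the METTL3 knockout. By rank within a library, site 3 was the strongest peak of MYC in all but control 1.

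**Figure D5:**
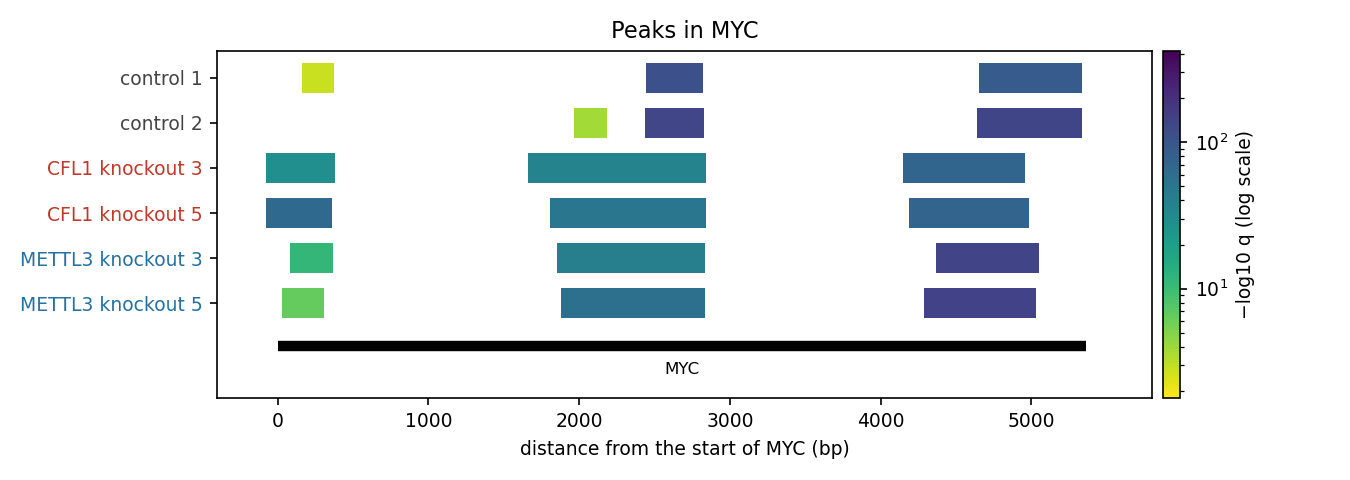
Peaks in MYC, 1 row per library, by distance from the gene's annotated start in bp; colour gives −log10 q on a log scale, and the bar marks the gene. The middle peaks share their right end and are 959 to 1177 bp wide in the knockouts against 384 and 395 bp in control, and the last peaks stop 314 to 404 bp before the gene's end in the knockouts against 29 and 30 bp in control.

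More bases of MYC were covered by peaks in the knockouts, although the number of peaks was equal. How often genes or windows over the genome have this order of the groups was not computed. Besides site 2, the peaks of site 1 were wider in every knockout library (460 and 436 bp in the CFL1 knockout, 289 and 284 bp in the METTL3 knockout) than the 215 bp of control 1, and those of site 3 were wider in the CFL1 knockout. The controls covered 1280 and 1306 bp, the CFL1 knockout libraries 2448 and 2260 bp, and the METTL3 knockout libraries 1955 and 1984 bp. The means were 1293 ± 18.4 bp, 2354 ± 133 bp and 1970 ± 20.5 bp (SD, n = 2 each; exact permutation p = 0.333 for each knockout, two-sided, the smallest possible). As a share of all bases covered by the peaks of each library, covered bases stood at 1.99 and 1.72 of control.

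Of the sites with a peak in all 6 libraries, 9 lay in the locus: MYC sites 2 and 3, PVT1 sites 14, 20, 40, 58, 64 and 66, and 1 site just before PVT1. Site 2 of MYC was the only one of the 9 with a wider peak in all 4 knockout libraries than in both controls, a pattern of 20.2% of such sites over the genome. The peaks were narrower in all 4 at 2 of the 9, sites 58 and 66 of PVT1, against 24.9%. Both control summits lay within 10 bp of each other at all 9, against 47.5%. All 4 knockout summits were at least 50 bp from both control summits at 3 of the 9, sites 14, 58 and 66 of PVT1, against 45.6%. Both ends of the peak were shifted the same way in all 4 knockout libraries at 4 of the 9, against 14.8%. They were MYC site 3, PVT1 sites 14 and 66 and the site before PVT1, and both ends lay at lower coordinates in each. This measure was chosen after the peaks of MYC had been seen, and it sets no least distance. At PVT1 site 14 the first base lay 17388 to 17399 bp from the start of PVT1 in the knockouts and 17413 and 17643 bp in control. At site 66 it lay at 237466 to 237471 bp against 237477 and 237492 bp. These 2 sites thus differed from the nearer control mainly at the last base, and the summits of site 14 lay higher, not lower.

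At site 58 of PVT1 the mean summit of either knockout lay at -322 bp from the control mean, towards the lower coordinate, and at site 66 the means lay at -102 bp in the CFL1 knockout and -108 bp in the METTL3 knockout. At site 14, chr8:128824167-128825148, it lay 202 and 200 bp higher. At each of these 3 sites the shift was nearly the same in both knockouts, which share their controls. At site 40 the mean summits were 15.5 and 13 bp from control.

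CCAT1 had no peak in any of the 6 libraries. The nearest peak of any library lay 120 kb on the lower side and 511 kb on the higher side. In the controls the nearest peaks were 650 kb away on the lower side, outside the locus, and 517 and 519 kb away on the higher side, in MYC. A peak list does not tell whether CCAT1 RNA was absent, too scarce for a peak or unmethylated. The 517 kb between CCAT1 and MYC, where CCAT2 and CASC8 lie by order of genes, had 1 site in all, close to MYC.

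Outside the 3 genes the order of the groups was the opposite of that in PVT1. This remainder is 83% of the locus, 1.58 Mb. Control 1 and control 2 had 1 peak each there. CFL1 knockout 3 and 5 had 9 and 8, and METTL3 knockout 3 and 5 had 9 and 7. Per 100000 peaks the control mean was 1.27 ± 0.0214, the CFL1 knockout mean 12.2 ± 0.218 and the METTL3 knockout mean 12.4 ± 2.35 (SD, n = 2 each), which is 9.6 and 9.76 times control. The exact permutation test gave p = 0.333 for each knockout and 0.0667 for both together (two-sided). How often stretches with so few control peaks have all knockout libraries above both controls was not computed, so this order cannot be called particular to the locus. Counts are small, and the ratio rests on weak peaks in part: at −log10 q of at least 10, with 1 peak in each control, 5 and 3 in the CFL1 knockout and 4 and 4 in the METTL3 knockout, it was 3.73 and 3.93. It was 6.05 and 5.04 at −log10 q of at least 5, and 6.21 and 5.14 at a fold of 4 or more.

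Of the 17 sites outside the genes, 16 had no control peak. Over the genome, 45.6% of sites had a knockout peak and no control peak. A single knockout library accounted for 12 of the 16, and 3 were called in all 4; of such sites over the genome, 63.6% were of a single library and 7.97% of all 4. Of the peaks there, 15 of 17 in the CFL1 knockout and 13 of 15 in the METTL3 knockout overlapped no control peak, against 53.2% and 49.3% over the genome. At −log10 q of at least 10 it was 6 of 8 and 6 of 7, against 32.9% and 29.3%. From PVT1 to the end of the locus, 487 kb, the controls had no peak, the CFL1 knockout libraries 5 and 3, and the METTL3 knockout libraries 3 and 2. Among windows of that length with knockout peaks and no control peak, 27.5% of 1427 had a peak in all 4 knockout libraries.

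The strongest site outside the genes, chr8:128098581-128099497, lies 120 kb below CCAT1 and was called in all 4 knockout libraries. Its −log10 q was 60.1 (fold 10.8) and 87.2 (fold 19.3) in CFL1 knockout 3 and 5, and 75.7 (fold 19) and 51.5 (fold 18.5) in METTL3 knockout 3 and 5. The nearest control peak was 529 kb away. It was the strongest peak outside the genes in each knockout library. Whether it lies in a known super enhancer or gene was not analysed here, because no hg19 annotation was used.

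A site 5.53 kb before the start of MYC, chr8:128742790-128743364, was likewise called in all 4 knockout libraries and in no control, with −log10 q of 16.4, 19.2, 12.4 and 12.7 in the order given above. The last such site, chr8:129357937-129358139, had 6.14, 4.71, 12.4 and 10.3. Neither was as strong as the site below CCAT1. The only site outside the genes with control peaks, chr8:128805950-128806575, ended 204 bp before the annotated start of PVT1 and was called in all 6 libraries, with −log10 q of 23.8 and 32.4 in control, 32.2 and 51.7 in the CFL1 knockout, and 24.2 and 2.12 in the METTL3 knockout.

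The other named sites outside the genes belonged to 1 library each. CFL1 knockout 3 alone had chr8:129297750-129297979 (−log10 q 13.9) and chr8:129378771-129378971 (5.15), and CFL1 knockout 5 alone had chr8:127813304-127813591 and chr8:128776111-128776311 (6.63 at both). The second library of the same knockout had no peak at any of the 4.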

How the data were processed

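The 3 deposited peak lists are in hg19 coordinates; the submitters' processing notes name STAR, MACS2 and bedtools, without versions. Settings, and what the calls were made against, are not given. For each peak the authors deposited the summit position, its enrichment as a ratio (fold), and −log10 q. Of 32 samples, 12 stand behind these lists and 20 were not analysed. The peak names tell the 2 libraries of each list apart; those of the knockout libraries carry the letters si, while the labels, which were followed, say knockout. Lines with the same interval were collapsed before shares were computed. A peak belonged to a gene that it overlapped by at least 1 bp, and otherwise to the rest of the locus. Peaks were counted per 100000 peaks of a library and compared by exact permutation of libraries with Python 3.11.15, pandas 2.3.3 and scipy 1.17.1, after a check on simulated data. Shares have exact 95% binomial (Clopper-Pearson) intervals.

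Named sites are all those of MYC, and in PVT1 and outside the genes the 8 with the highest −log10 q in any library, the 5 highest of both controls and no knockout, and the 5 highest of all 4 knockout libraries and no control. The members and lists were chosen with earlier results of these data known. Other genes and the MYC network were not analysed here, since no hg19 annotation was used. Sequences are not reported here. Alternatives varied the −log10 q and fold minimum, the overlap, the joining of near peaks, the bounds of the genes, the scaling and the libraries kept.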

Additional observations from a re-analysis of the deposited data

How the results depend on the processing

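Among 118 alternative values without leaving out a library, 44 lay within 1 SD between libraries of the reported value. Another 72 moved by more, some by little where that SD is small, and 2 reversed. Only the 60 ratios to control could be called reversed, because the shares had no direction to turn. The cause was not tested. Ratios to control are given as CFL1 knockout, then METTL3 knockout. At −log10 q of at least 5 the locus stood at 0.374 and 0.415, MYC at 1.52 and 1.68, and the rest of the locus at 6.05 and 5.04. At −log10 q of at least 10 the locus stood at 0.387 and 0.421, MYC in the CFL1 knockout at 1.4, and the rest at 3.73 and 3.93. At a fold of at least 4 the locus stood at 0.584 and 0.714, PVT1 at 0.277 and 0.468 and the rest at 6.21 and 5.14. There MYC reversed to 0.224 and 0.468, on very few peaks. By raw counts the locus stood at 0.379 and 0.405, MYC at 1 and 1, PVT1 in the METTL3 knockout at 0.231, and the rest at 8.5 and 8. By covered bases the locus in the CFL1 knockout stood at 0.477, MYC at 1.99 and 1.72, PVT1 in the CFL1 knockout at 0.271, and the rest at 7.43 and 7.15. With genes widened by 2 kb, PVT1 in the METTL3 knockout stood at 0.31, CCAT1 still had 0 peaks, and the rest gave no value because control had no peak there.

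Shares are in percent in the same order. In the main setting 77.6 and 77.6 of the control peaks of the locus were lost, against 57.8 and 57.7 over the genome. Of the knockout peaks of the locus, 45.5 and 41.3 were absent from control, below the 53.2 and 49.3 of the genome. For control peaks of the locus lost a −log10 q minimum of 5 gave 76 and 76, one of 10 gave 72.9 and 68.6, a fold minimum of 4 gave 60.5 and 55.3, and peaks joined within 100 bp gave 78.9 and 78.9. An overlap of 50% of the shorter peak gave 80.2 in the CFL1 knockout, and summits as positions gave 80.2 and 80.2. For PVT1 the same settings gave 80.9 and 80.9, 79.7 and 75, 71.9 and 65.6, 84.8 and 84.8, 84.3 and 84.3, and 86.1 and 86.1. For knockout peaks of the locus absent from control they gave 40.5 and 33.3, 31 and 34.5, 56 and 46.4, 53.6 and 50, and 50 and 47.8, with 47.8 in the METTL3 knockout by summits. For those of PVT1 the CFL1 knockout gave 26.3, 20, 20 and 30.8 in the first 4 settings; the METTL3 knockout gave 28.6 with joined peaks, 32 with the 50% overlap and 32 by summits.

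Leaving out each library in turn gave ratios of 0.408 to 0.448 and 0.458 to 0.53 for the locus, 0.197 to 0.24 and 0.269 to 0.297 for PVT1, 1.08 to 1.18 and 1.2 to 1.23 for MYC, and 9.48 to 9.72 and 8.46 to 11.1 for the rest. Lost shares were 76.8 to 80.2 and 76.8 to 79.3 in the locus and 82.7 to 86.1 and 82.7 to 85.2 in PVT1. Absent shares were 45 to 50 and 40.9 to 45.7 in the locus and 22.2 to 28.6 and 23.1 to 32 in PVT1. The alternatives for the shares of PVT1, and those by summit and covered bases for single genes and the rest, were added once the data had been seen. No paired analysis was possible because peak names number knockout libraries differently from the labelled replicates. Read depth is unknown, so weak peaks may be missed in a library for that reason, which was not tested.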
